A study of Mus musculus with 6 samples.

Results

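The lysosome and autophagy genes examined here are a hand-chosen set of 45 gene symbols, which were matched exactly against the first column of the deposited count tables. Of these, 44 were found among the 24421 genes listed, and all 44 passed edgeR's expression filter, which kept 14180 genes. The symbol Vps34 had no match. RefSeq gives it as a synonym of Pik3c3, which was placed among the further autophagy genes below. The set holds 27 lysosomal proteins (10 proteases, 8 glycosidases or lipases, 4 lipid-handling or activator proteins and 5 membrane proteins), 2 transcription factors and 15 matched autophagy proteins.

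Bulk RNA-Seq of the gastrocnemius/plantaris (GP) hindlimb muscle asked how loss of Net39, a protein of the inner nuclear membrane, alters adult gene expression. The 6 mice, males by the study's methods, were 5 months old and had been given tamoxifen 3 months earlier. By their labels, 3 libraries (Ctrl) come from Net39 fl/fl mice without Cre and 3 (cKO) from HSACreERT2;Net39 fl/fl mice, in which the human skeletal actin promoter drives an inducible Cre in muscle fibers but not in satellite cells. Floxed alleles, tamoxifen and a B6C3F1 strain background are given for both groups. B6C3F1 joins C57BL/6 and C3H, the study's methods add a cross of the founders to C57BL/6N and a further cross to the Cre line, and which strain's allele each mouse carried at any gene was not tested.

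The targeted gene goes against the labels. Net39, listed as Ppapdc3, measured 7.92, 7.75 and 5.93 CPM (read counts scaled to library size with edgeR's TMM factors) in Ctrl 1, 2 and 3, compared with 151, 113 and 138 CPM in cKO 1, 2 and 3. Its log2 fold change was 4.22 ± 0.17 (standard error), and the groups did not overlap. Groups are therefore named by label throughout, each log2 fold change puts cKO libraries over Ctrl libraries, and the low-Net39 libraries are those labelled Ctrl. Whether the labels of the groups were exchanged was not tested. If they were, every direction relative to genotype would reverse. Library totals were 33860001 to 38201728 counts in the Ctrl group and 39191239 to 48839910 in the cKO group. Scaling matters here: when libraries were scaled by their total counts alone, the median log2 fold change over the whole table moved from -0.02 to -0.27. Skeletal muscle identity was clear, with 7 fiber markers summing to 74532 to 120888 CPM per library. The slow-fiber markers varied widely within groups, with 6 of them summing to 4733 to 9065 CPM in the Ctrl libraries and 264 to 2518 CPM in the cKO libraries. Of the first 7 fiber markers, 5 passed toward cKO, as did 3 of 3 fast IIb markers. Of the 6 slow markers, 2 passed toward Ctrl. Among all genes tested, 12.6% passed toward cKO and 11.8% toward Ctrl. The first 7 include the fast-fiber genes Tnnt3 (0.76) and Mylpf (0.60), which passed, while Acta1 (0.19) and Ttn (0.47) did not pass. The part of these fiber markers in the results was not tested. Of 3 blood markers, Hba-a1 and Hbb-bt were at 0 in all libraries, while Alas2 measured 3.97 to 8.76 CPM. Why Hba-a1 and Hbb-bt had no counts was not tested.

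Lysosomes are acidic, membrane-bound compartments in which cathepsins, glycosidases and lipases break down proteins, sugars and lipids. Autophagy delivers cytoplasm and damaged organelles to them: a kinase complex built on ULK1 and ATG13 starts the process, a lipid kinase complex with BECN1 marks the membrane, and ubiquitin-like ATG8 proteins are coupled to it and bind cargo receptors such as SQSTM1. TFEB and TFE3 are transcription factors known to switch on genes of both systems, and in skeletal muscle autophagy is known for its part in fasting, atrophy and the clearance of mitochondria.

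Lysosome and autophagy genes did not move in one direction. Of the 44 genes, 15 had an adjusted p under 0.05, compared with 24.4% of all genes tested. In 9 of them the Ctrl libraries were higher, and in 6 the cKO libraries. Across all genes tested, 11.8% were called toward Ctrl and 12.6% toward cKO, while the members' shares were 20.5% and 13.6%. With a fold change over 2 as well, 4 members were called toward Ctrl (9.09%, compared with 3.92% of all genes) and 0 toward cKO (compared with 2.13%), where the largest log2 fold change of any member was 0.86. DESeq2 also gave 0. Without Ctrl 3 or without cKO 1, the 4 became 2. The median log2 fold change of the members was -0.05, and that of all 14180 genes was -0.02. The plot of log2 fold changes by class shows called members on both sides of 0 in 4 of the 9 classes.

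**Figure D1:**
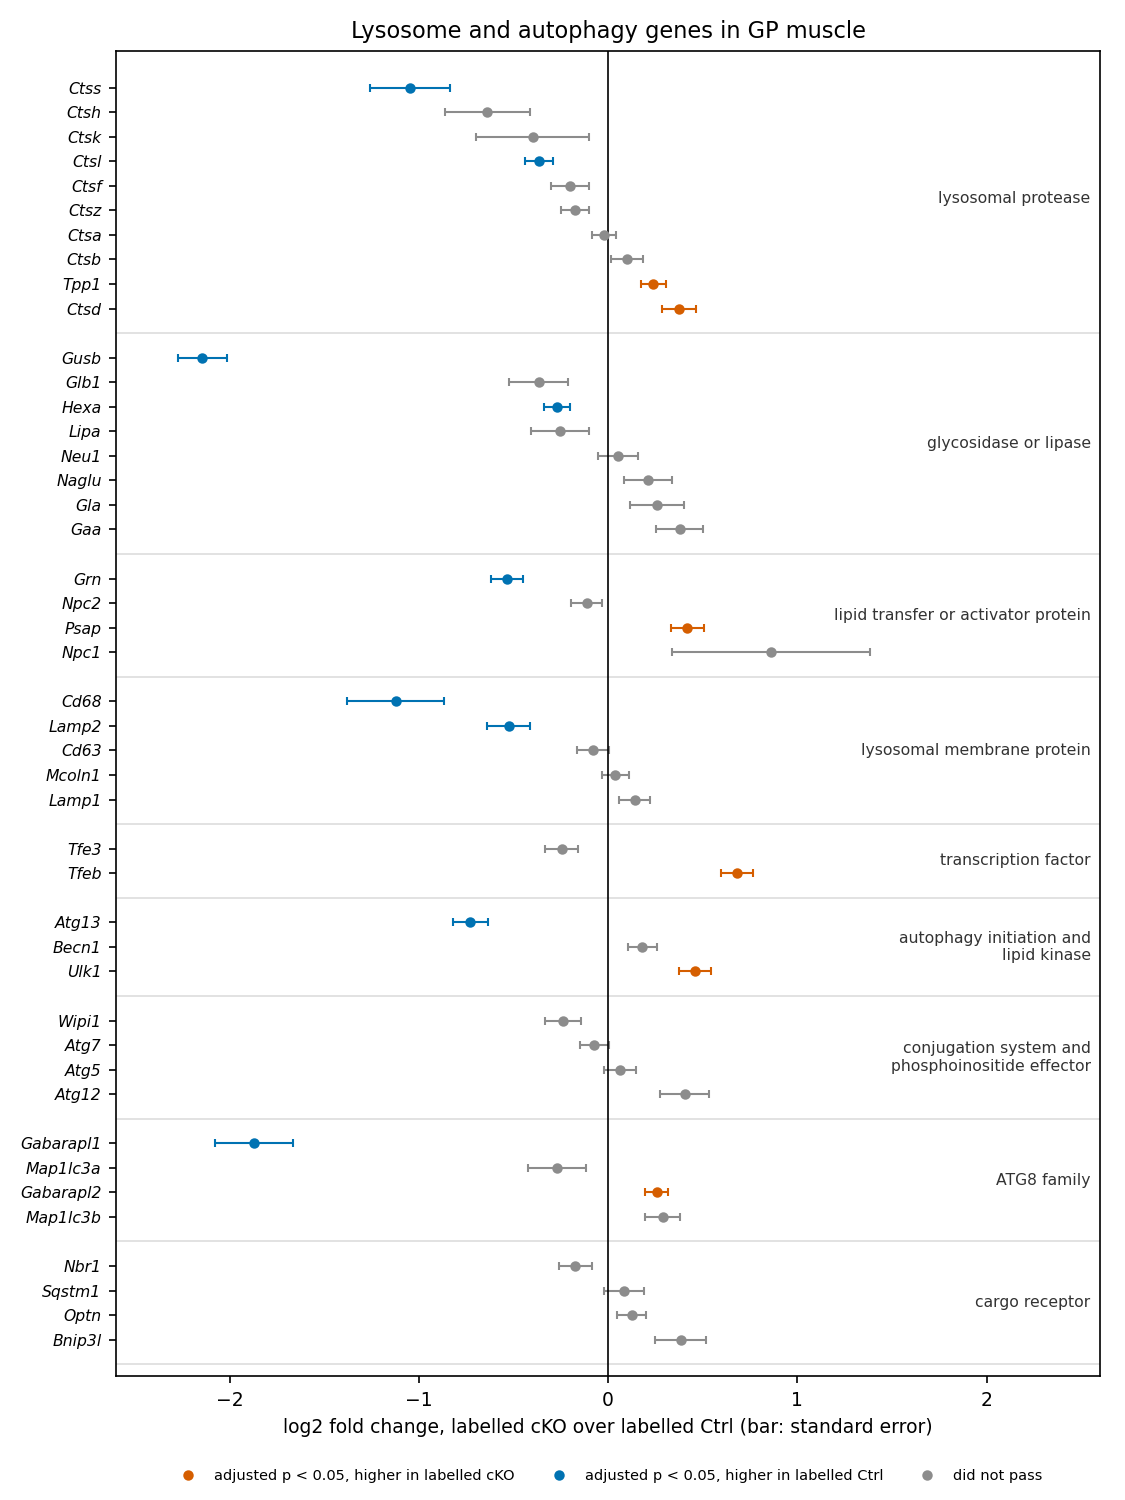
Log2 fold change (labelled cKO over labelled Ctrl, x axis) of each of the 44 genes, grouped by class on the y axis, with bars for the standard error. Orange points passed an adjusted p of 0.05 toward cKO, blue points toward Ctrl and grey points did not pass. Gusb (-2.14) and Gabarapl1 (-1.87) lie farthest from 0.

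Values of the groups did not overlap in 13 members that were higher in cKO and 14 that were higher in Ctrl. Among all genes tested, 22.0% and 21.9% had such a separation, so in total 61.4% of the members and 43.9% of all genes were separated. Of the 15 called members, 6 kept their call in all 13 alternative analyses tried: Tfeb toward cKO, and Gusb, Gabarapl1, Atg13, Grn and Ctss toward Ctrl. The other 9 lost it in at least 1 alternative. With total counts, 1 member was called toward cKO and 22 toward Ctrl, while the calls over all genes moved to 4.75% and 28.7%. With 1 library left out, the calls ranged from 1 to 9 toward cKO and from 5 to 11 toward Ctrl. Toward cKO there were 1 without cKO 3, 2 without Ctrl 2 or cKO 1, 3 without Ctrl 1 and 9 without Ctrl 3. Toward Ctrl there were 5 without cKO 1 or cKO 3 and 11 without cKO 2. Over all genes the same fits called from 5.33% to 12.3% toward cKO and from 5.46% to 12.5% toward Ctrl, with the lowest shares without Ctrl 1 and without cKO 3.

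The transcription factor Tfeb was higher in the libraries labelled cKO. Tfeb, on chromosome 17 (47737030 to 47792419, plus strand, GRCm38), measured 64.4, 68.0 and 63.7 CPM in Ctrl 1, 2 and 3 and 114, 95.9 and 105 CPM in cKO 1, 2 and 3. The lowest cKO library thus lay above each Ctrl library. The log2 fold change was 0.68 ± 0.08 (adjusted p = 0.00365), or 1.60-fold on mean CPM. It stayed between 0.60 and 0.72 with each library left out and was 0.42 with total counts. Tfe3, a paralog on chromosome X, was expressed at 16.3, 16.7 and 17.1 CPM in Ctrl and at 14.9, 14.4 and 13.0 CPM in cKO. The Ctrl libraries were all above the cKO libraries, but the difference did not pass (log2 fold change -0.25 ± 0.09, adjusted p = 0.0813). With total counts Tfe3 passed, at -0.50 (adjusted p = 0.0121).

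Factors of the TFEB family are known to bind E-boxes, above all the palindrome TCACGTGA at lysosomal genes. RefSeq promoters (GRCm38.p6; 250 bases before to 50 after each annotated start) were found for 37 of the 45 symbols. The core CACGTG, which reads the same on both strands and lies inside TCACGTGA, was present for 12 of these 37 genes (32.4%), compared with 8.09% of all 27025 genes in the table. TCACGTGA was present for 4 of the 37 (10.8%), compared with 1.125% of all genes. The full CLEAR palindrome, which adds a G before and a C after TCACGTGA, was present for 0 of the 37, compared with 0.37% of all genes. Of the 12 members with CACGTG, 10 are lysosomal and 2, Atg5 and Atg7, are autophagy genes. The following windows were selected because they hold TCACGTGA, or because the gene is a called or abundant lysosomal member. Capitals mark the E-box, each sequence runs 5′ to 3′ on the strand of its gene, and where a promoter holds several E-boxes one is shown.
Ctsa (chr2:164833751-164833776, plus strand): agcaaactgTCACGTGAtgcagatgc
Ctsd (chr7:142387910-142387935, minus strand): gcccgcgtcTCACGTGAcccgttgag
Gla (chrX:134601217-134601242, minus strand): agcgattgaTCACGTGAgcatctacg
Mcoln1 (chr8:3500464-3500489, plus strand): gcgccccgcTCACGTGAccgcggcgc
Ctsl (chr13:64370741-64370766, minus strand): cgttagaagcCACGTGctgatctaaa
Gaa (chr11:119267813-119267838, plus strand): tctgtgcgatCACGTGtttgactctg
Lamp1 (chr8:13159106-13159131, plus strand): gtccagcgccCACGTGatgccgactg

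Of the 12 members with CACGTG in this window, Ctsd was called toward cKO, Ctsl toward Ctrl, and 10 did not pass, beside 24.4% called among all genes tested. Of the 25 members whose promoters lack CACGTG, 5 were called toward cKO and 8 toward Ctrl. The median log2 fold change was 0.05 for the 12 and -0.18 for the 25. A letter match describes the sequence and does not show binding.

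Ulk1 and Atg13, whose products act in one initiation complex, were called in opposite directions. Ulk1, which encodes the kinase, measured 85.4, 81.4 and 75.1 CPM in Ctrl 1, 2 and 3 and 108, 106 and 119 CPM in cKO 1, 2 and 3, without overlap. Its log2 fold change was 0.46 ± 0.08 (adjusted p = 0.0106), and the call was lost without cKO 3 (0.39, adjusted p = 0.0532) and with total counts (0.20, adjusted p = 0.125). Atg13, which encodes the kinase's regulatory partner and lies on chromosome 2 (91674618 to 91710576, minus strand), measured 107, 102 and 91.4 CPM in Ctrl and 56.8, 65.6 and 59.0 CPM in cKO. Each Ctrl library was therefore above each cKO library, at 1.66-fold on mean CPM (log2 fold change -0.73 ± 0.09, adjusted p = 0.00369). The value stayed between -0.81 and -0.68 with each library left out. Of the other subunits, Atg101 was called toward cKO (0.55 ± 0.16, adjusted p = 0.0409) and Rb1cc1 did not pass (0.33 ± 0.12, adjusted p = 0.078). Becn1, a subunit of the lipid kinase complex, was measured at 50.6 to 58.9 CPM in Ctrl and 61.7 to 62.9 CPM in cKO. The groups did not overlap, but the difference did not pass (0.18 ± 0.08, adjusted p = 0.128) and its sign turned with total counts (-0.07). Exons of Becn1 share 43.9% of their bases with Cntd1 on the opposite strand, which had 16 to 27 counts per library.

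**Figure D2:**
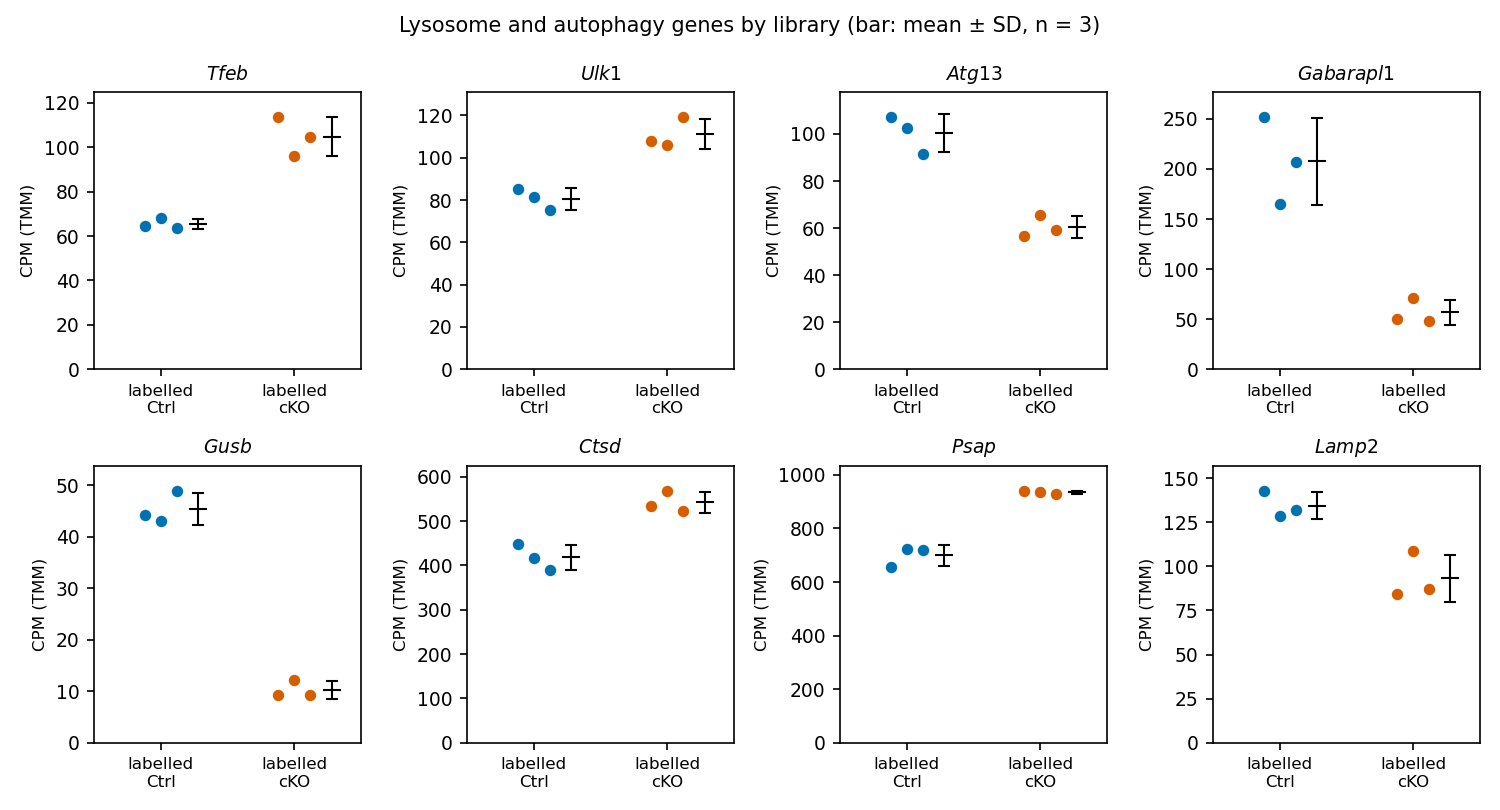
CPM with TMM factors (y axis, from 0) of 8 lysosome and autophagy genes in each of 3 libraries labelled Ctrl (blue) and 3 labelled cKO (orange), with the mean and SD in black. In every panel the groups are apart, with Tfeb, Ulk1, Ctsd and Psap higher in cKO and Atg13, Gabarapl1, Gusb and Lamp2 higher in Ctrl.

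Within the ATG8 family, Gabarapl1 was far higher in the libraries labelled Ctrl while Gabarapl2 was slightly higher in those labelled cKO. Gabarapl1 (chromosome 6, 129533160 to 129542346, plus strand) encodes a GABARAP-type ATG8 protein. It measured 252, 165 and 207 CPM in Ctrl 1, 2 and 3 and 50.5, 71.5 and 48.2 CPM in cKO 1, 2 and 3. The groups lay far apart, and mean CPM differed 3.66-fold (log2 fold change -1.87 ± 0.21, adjusted p = 0.00272). The value ranged from -2.09 to -1.71 with each library left out. Its exons share 28.3% of their bases with 1700101I11Rik on the opposite strand, a gene with 3 to 39 counts per library where Gabarapl1 had 1789 to 9857. Gabarapl2 measured 49.9, 49.5 and 51.4 CPM in Ctrl and 61.5, 58.8 and 59.8 CPM in cKO. The small difference exceeded a narrow spread (0.26 ± 0.06, adjusted p = 0.0268), but was lost without Ctrl 1, Ctrl 2, cKO 1 or cKO 3 (adjusted p from 0.0889 to 0.0984). It was also lost with total counts (0.00, adjusted p = 0.996).

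The LC3-type members did not pass. Map1lc3b, the usual marker of autophagosomes, measured 159, 146 and 135 CPM in Ctrl and 189, 169 and 180 CPM in cKO (0.29 ± 0.09, adjusted p = 0.0588). Its groups did not overlap, and DESeq2 called it (adjusted p = 0.0269). Map1lc3a overlapped, at 226, 236 and 164 CPM in Ctrl and 179, 151 and 189 CPM in cKO (-0.27 ± 0.15, adjusted p = 0.24). It passed without Ctrl 3 (-0.41, adjusted p = 0.0455) and with total counts (-0.53). Per kilobase of exon, the mean level of Map1lc3a was the highest of the 4 genes in both groups, at 176 CPM per kilobase in Ctrl and 146 in cKO. Gabarapl1 stood next in Ctrl at 103 CPM per kilobase, well above Gabarapl2 (21.6) and Map1lc3b (19.5), whereas in cKO it stood at 28.2, near Gabarapl2 (25.8) and Map1lc3b (23.9). Together the 4 genes summed to 557 to 686 CPM in the Ctrl libraries and 450 to 480 CPM in the cKO libraries. Gabarap, a further ATG8 gene, is not among these 4 and was placed with the other autophagy genes. It measured 130 to 150 CPM in Ctrl and 122 to 129 CPM in cKO and did not pass (-0.16 ± 0.08, adjusted p = 0.198).

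**Figure D3:**
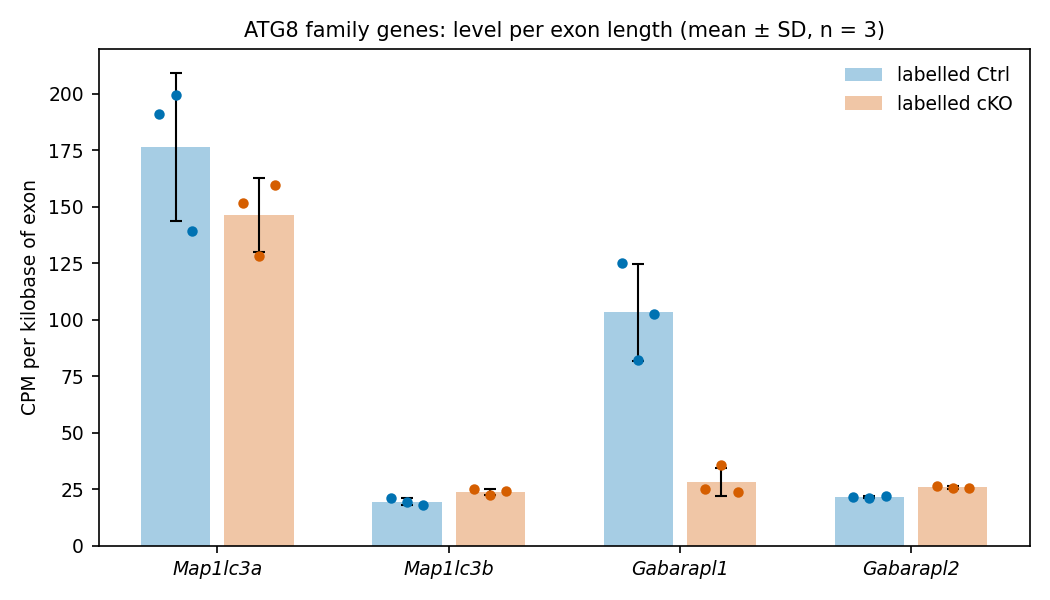
Level of 4 ATG8 family genes as CPM per kilobase of exon (y axis, from 0). Bars give the mean of 3 libraries, error bars the SD and points single libraries, blue for labelled Ctrl and orange for labelled cKO. The mean of Gabarapl1 is 103 in Ctrl and 28.2 in cKO, and each other gene differs less between groups.

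Of the 4 cargo receptors and the 4 genes of conjugation and phosphoinositide binding, 0 passed in edgeR's test, beside 24.4% of all genes. At an unadjusted p under 0.05 there were 3 (Atg12, Wipi1 and Bnip3l), beside 38.8% of all genes, and DESeq2 called Atg12 and Bnip3l. Sqstm1, which encodes p62 and was the most abundant autophagy member per kilobase of exon, measured 638, 666 and 739 CPM in Ctrl and 743, 655 and 768 CPM in cKO. The groups overlapped (0.08 ± 0.11, adjusted p = 0.597), and the sign turned with total counts (-0.17). Its exons share 17.3% of their bases with Mrnip on the opposite strand. Bnip3l, a mitophagy receptor, measured 39.7, 40.5 and 54.6 CPM in Ctrl and 55.3, 63.4 and 57.1 CPM in cKO. These groups lay apart by less than 1 CPM at their nearest libraries (0.38 ± 0.13, adjusted p = 0.0783), and Bnip3l passed without Ctrl 3 (0.55, adjusted p = 0.0102). The receptors Nbr1 (120 to 152 CPM over the 6 libraries, log2 fold change -0.17) and Optn (118 to 137 CPM, 0.12) had smaller differences. Among the conjugation genes and the phosphoinositide-binding Wipi1, log2 fold changes ran from -0.24 for Wipi1 to 0.40 for Atg12, with Atg5 at 0.06 and Atg7 at -0.07. Over the 6 libraries Wipi1 measured 65.1 to 87.8 CPM, Atg12 22.9 to 39.1, Atg5 14.4 to 16.6 and Atg7 17.8 to 19.5. Leaving out 1 library made Atg12 pass without Ctrl 3 (adjusted p = 0.0357) and Wipi1 pass without cKO 2 (adjusted p = 0.0249). With total counts, Nbr1 (-0.43, adjusted p = 0.00627), Wipi1 (-0.49, adjusted p = 0.0283) and Atg7 (-0.33, adjusted p = 0.0236) passed toward Ctrl. That fit called 28.7% of all genes toward Ctrl.

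Of the 10 lysosomal proteases, Ctsd and Tpp1 were called toward cKO and Ctsl and Ctss toward Ctrl. Ctsd, an aspartic protease and the most abundant of the 10 per kilobase of exon (178 CPM per kilobase in Ctrl), measured 448, 418 and 391 CPM in Ctrl 1, 2 and 3 and 535, 569 and 524 CPM in cKO 1, 2 and 3. All cKO values lay above all Ctrl values (0.37 ± 0.09, adjusted p = 0.0263). The call was lost without Ctrl 2, cKO 1, cKO 2 or cKO 3 (adjusted p from 0.0612 to 0.0853) and with total counts (0.12, adjusted p = 0.422). Exons of Ctsd share 34.4% of their bases with Gm49369 on the same strand. Tpp1, a tripeptidyl peptidase, measured 54.9, 57.2 and 59.4 CPM in Ctrl and 67.3, 66.9 and 68.0 CPM in cKO. Its difference was small but apart from the spread (0.24 ± 0.07, adjusted p = 0.0379), and only the fit without Ctrl 3 kept the call among those that left out 1 library (adjusted p from 0.063 to 0.132 in the other 5). It was also lost with no filter on low counts (adjusted p = 0.0545), and with total counts the sign turned (-0.015).

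Ctsl and Ctss, both cysteine cathepsins, were higher in the libraries labelled Ctrl. Ctsl measured 120, 116 and 108 CPM in Ctrl and 86.8, 91.0 and 89.6 CPM in cKO (-0.37 ± 0.07, adjusted p = 0.0145). The call was lost narrowly without Ctrl 1, Ctrl 2, cKO 1 or cKO 3 (adjusted p from 0.0546 to 0.0578), and the direction held in each alternative. Exons of Ctsl share 26.8% of their bases with Gm47123 and Gm49230 on the opposite strand. Ctss, a cathepsin known from antigen-presenting cells, was much less abundant at 9.14, 8.66 and 11.9 CPM in Ctrl and 3.47, 5.27 and 5.59 CPM in cKO. It differed 2.07-fold on mean CPM (-1.05 ± 0.21, adjusted p = 0.0141) and stayed between -1.19 and -0.88 with each library left out.

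The other 6 proteases did not pass. Ctsb, a cysteine cathepsin, overlapped at 279 to 299 CPM in Ctrl and 289 to 330 CPM in cKO, and Ctsa, the carboxypeptidase that also protects NEU1 and GLB1, was within 67.4 to 71.2 CPM in all 6 libraries. Exons of Ctsb share 12.8% of their bases with Fdft1, which was called toward cKO (0.65), and those of Ctsa share 17.4% with Neurl2 and Pltp, all on the opposite strand. Ctsh differed more, at 11.3 to 16.9 CPM in Ctrl and 6.89 to 11.4 CPM in cKO, but the groups overlapped (-0.64 ± 0.22, adjusted p = 0.0784). It passed without cKO 2 (-0.89, adjusted p = 0.0246), with total counts (-0.88, adjusted p = 0.0385) and under DESeq2 (-0.63, adjusted p = 0.0339). Ctsk, known from osteoclasts, ranged from 3.33 to 8.52 CPM within the cKO libraries alone. Ctsf (21.8 to 30.0 CPM over the 6 libraries) and Ctsz (25.2 to 31.0 CPM) had log2 fold changes of -0.20 and -0.18. With total counts, Ctsf (-0.46, adjusted p = 0.0131), Ctsz (-0.43, adjusted p = 0.0102) and Ctsa (-0.28, adjusted p = 0.0342) also passed. That fit called 28.7% of all genes toward Ctrl.

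Among the glycosidases, Gusb showed the largest difference of all 44 members. Gusb encodes beta-glucuronidase and lies on chromosome 5 (129989011 to 130003049, minus strand). It measured 44.3, 43.0 and 49.0 CPM in Ctrl 1, 2 and 3 and 9.23, 12.2 and 9.34 CPM in cKO 1, 2 and 3, from 1733 to 1790 counts and from 327 to 471 counts. Each group was tight, and the means differed 4.42-fold (-2.14 ± 0.13, adjusted p = 0.00055). The value remained between -2.39 and -2.09 over the 13 alternatives. Gusb is a classical locus at which inbred mouse strains, C3H among them, are known to differ in enzyme level.

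Hexa, the alpha subunit of beta-hexosaminidase, was modestly higher in the libraries labelled Ctrl. It measured 63.8, 60.6 and 66.9 CPM in Ctrl and 52.9, 52.8 and 52.9 CPM in cKO (-0.27 ± 0.07, adjusted p = 0.0285). The groups were apart, but only the fit without cKO 2 kept the call among those that left out 1 library (adjusted p from 0.054 to 0.0897 in the other 5), and it was lost with no filter on low counts (adjusted p = 0.0509). Exons of Hexa share 12.8% of their bases with Tmem202 on the opposite strand, which was also higher in Ctrl, at 33 to 44 counts compared with 7 to 10. Gaa, the acid alpha-glucosidase that digests glycogen in muscle lysosomes, measured 223, 222 and 284 CPM in Ctrl and 286, 324 and 338 CPM in cKO. Ctrl 3 reached nearly to cKO 1 (0.38 ± 0.13, adjusted p = 0.0674), and the difference passed without Ctrl 3 (0.51, adjusted p = 0.0191) and under DESeq2 (adjusted p = 0.0242). Naglu, Neu1, Gla, Glb1 and Lipa had log2 fold changes between -0.37 and 0.26 and did not pass. Over the 6 libraries Neu1 measured 16.1 to 20.4 CPM, Lipa 11.5 to 17.0, Naglu 5.59 to 7.76, Glb1 3.05 to 4.97 and Gla 3.19 to 4.50. Of these, Gla was the least abundant member at 1.06 CPM per kilobase of exon in Ctrl.

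Among the lipid-handling proteins, Psap was called toward cKO and Grn toward Ctrl. Psap encodes prosaposin, the precursor of the saposins that present lipids to lysosomal enzymes, and it was the most abundant member per kilobase of exon in both groups (255 and 340 CPM per kilobase). It measured 655, 724 and 718 CPM in Ctrl and 941, 934 and 927 CPM in cKO (0.42 ± 0.09, adjusted p = 0.0167). The cKO libraries were nearly equal, yet the call was lost without Ctrl 1, Ctrl 2, cKO 1 or cKO 3 (adjusted p from 0.0534 to 0.0668) and with total counts (0.17, adjusted p = 0.189). Grn, which encodes progranulin, measured 45.5, 44.6 and 40.6 CPM in Ctrl and 28.1, 32.5 and 29.8 CPM in cKO. The difference was 1.45-fold (-0.53 ± 0.08, adjusted p = 0.00707) and stayed between -0.61 and -0.50 with each library left out. Its exons share 1.96% of their bases with Fam171a2 on the opposite strand. Npc1, the cholesterol exporter of the lysosomal membrane, had the largest standard error of log2 fold change of the members. It measured 46.1, 39.6 and 21.6 CPM in Ctrl and 107, 22.7 and 65.1 CPM in cKO. The log2 fold change, 0.86 ± 0.52, did not pass (adjusted p = 0.265), and without cKO 2, the cKO library with the low value, it was 1.25 (adjusted p = 0.0431). Without cKO 1, the library with the highest value, it was 0.28 (adjusted p = 0.728). Npc2, its soluble partner, measured 38.0 to 45.7 CPM over the 6 libraries (log2 fold change -0.11).

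The membrane proteins included Lamp2 and Cd68, both higher in the libraries labelled Ctrl. Lamp2, which encodes a heavily glycosylated protein needed for autophagosome fusion and lies on chromosome X, measured 143, 129 and 132 CPM in Ctrl and 84.2, 109 and 87.3 CPM in cKO. The groups were apart (-0.53 ± 0.11, adjusted p = 0.0176), and the call was lost without Ctrl 1, cKO 1 or cKO 3 (adjusted p from 0.0591 to 0.068). Lamp1, the related protein, measured 485, 498 and 473 CPM in Ctrl and 555, 536 and 513 CPM in cKO. It did not pass (0.14 ± 0.08, adjusted p = 0.251), and its sign turned with total counts (-0.12). Cd68, a lysosomal protein of macrophages, was rare at 5.01, 8.04 and 8.83 CPM in Ctrl and 2.48, 3.84 and 3.68 CPM in cKO. It differed 2.19-fold (-1.12 ± 0.26, adjusted p = 0.0215), and the call was lost without Ctrl 2, Ctrl 3, cKO 1 or cKO 3 (adjusted p from 0.0508 to 0.0699). The calcium channel gene Mcoln1 (27.7 to 30.7 CPM over the 6 libraries, log2 fold change 0.04) and the tetraspanin gene Cd63 (101 to 120 CPM, -0.08) differed by less than their standard errors.

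Macrophage markers went the same way as Ctss, Cd68 and Grn, 3 of the 7 lysosomal members called toward Ctrl. The 3 lysosomal members called toward cKO (Ctsd, Psap and Tpp1) went the other way. Of 14 markers, 14 had a negative log2 fold change and 9 (64.3%) passed toward Ctrl, beside 11.8% of all genes. Among the 9 were C1qb (-0.93 ± 0.08), Lyz2 (-1.07 ± 0.13) and C1qc (-0.84 ± 0.11). The 14 markers summed to 245 to 262 CPM in the Ctrl libraries and 120 to 154 CPM in the cKO libraries. Of the 14, 0 were at 0 in all libraries. In whole-muscle RNA, fewer cells of a type and less RNA per cell cannot be told apart, and the part of these cells in the members' values was not tested. Neutrophil markers stood at 0.39 CPM or less in sum. Of 7 fibroblast markers, 3 (42.9%) passed toward Ctrl (Dpt, Lum and Col3a1). The summed level of the 7 overlapped, at 1166 to 1385 CPM in Ctrl and 829 to 1374 CPM in cKO. Endothelial markers gave 1 call of 5 (20%, beside 11.8% of all genes), Vwf toward Ctrl (-0.38 ± 0.07). They summed to 378 to 390 CPM in Ctrl and 335 to 368 CPM in cKO. Satellite cell and adipocyte markers gave 0 calls of 3 each in edgeR's test, beside 24.4% of all genes. At an unadjusted p under 0.05 they also gave 0, beside 38.8%.

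**Figure D4:**
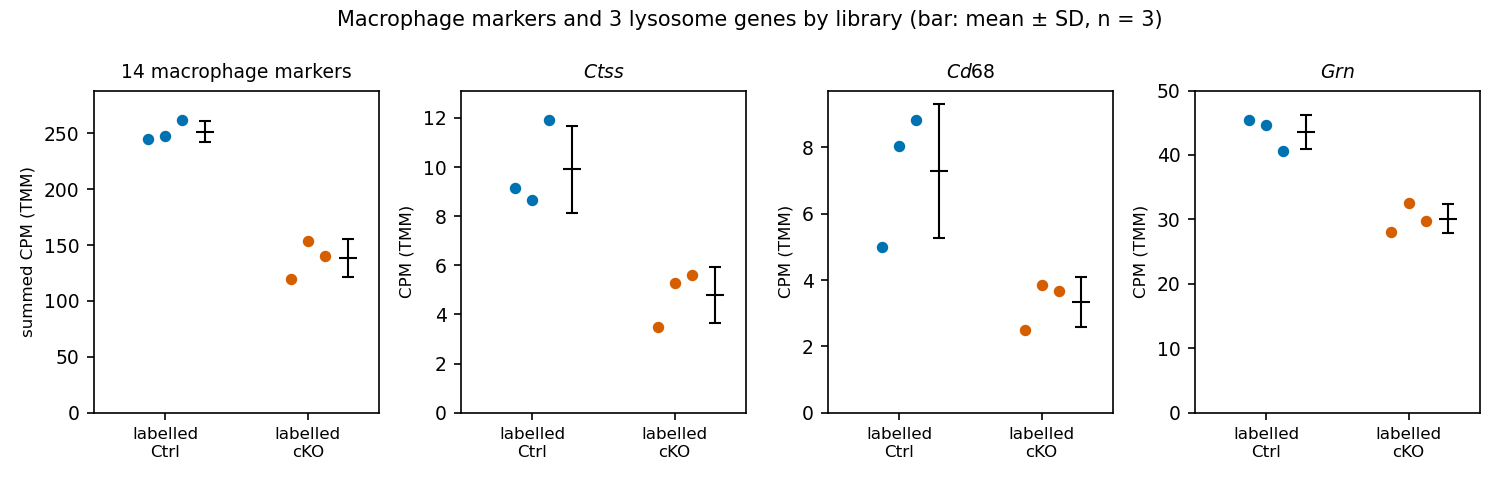
Summed CPM of 14 macrophage markers and CPM of Ctss, Cd68 and Grn (y axes, from 0) in the libraries labelled Ctrl (blue) and cKO (orange), with mean and SD in black (n = 3). All 4 quantities are higher in each Ctrl library than in each cKO library.

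Further genes of these pathways were called in both directions. Of 32 other lysosomal hydrolases and transporters, 5 passed toward Ctrl (15.6%, beside 11.8% of all genes) and 2 toward cKO (6.25%, beside 12.6%). Their median log2 fold change was -0.08. Those toward Ctrl with the smallest p were Lgmn (asparaginyl endopeptidase, -0.95 ± 0.06, adjusted p = 0.000627), Ppt1 (palmitoyl-protein thioesterase, -0.82 ± 0.11) and Laptm5 (a lysosomal protein of immune cells, -0.82 ± 0.12). Smpd1, the acid sphingomyelinase gene (0.31 ± 0.08), and Ids, which encodes iduronate sulfatase (0.29 ± 0.08), were higher in cKO. Lgmn was even within groups, at 62.8, 61.8 and 60.2 CPM in Ctrl and 32.0, 32.8 and 31.0 CPM in cKO. The products of 16 vacuolar ATPase genes tested acidify the lysosome. Of these genes, Atp6ap2 (-0.85 ± 0.11) and Atp6v0e (-0.39 ± 0.10) passed toward Ctrl (12.5%, beside 11.8% of all genes). Atp6v1g1 (0.61 ± 0.11) passed toward cKO (6.25%, beside 12.6%).

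Of 31 other autophagy genes tested, 7 passed toward cKO (22.6%, beside 12.6% of all genes) and 2 toward Ctrl (6.45%, beside 11.8%). Their median log2 fold change was 0.12. Toward cKO, those with the smallest p were Epg5 (a tethering factor for autophagosome fusion, 0.62 ± 0.08, adjusted p = 0.00369), Ulk2 (the paralog of Ulk1, 0.49 ± 0.08, adjusted p = 0.00737) and Stx17 (the SNARE of autophagosomes, 0.68 ± 0.11, adjusted p = 0.00753). Toward Ctrl were Bnip3 (a mitophagy receptor, -0.59 ± 0.13) and Uvrag (a partner of Becn1, -0.30 ± 0.07). Pik3c3, the lipid kinase also called Vps34, measured 21.0, 18.1 and 16.6 CPM in Ctrl and 28.8, 18.4 and 26.2 CPM in cKO. Its groups overlapped, and it did not pass (0.40 ± 0.18, adjusted p = 0.14). Of 18 genes that control mTORC1 and TFEB, Rragd (a Rag GTPase, 0.66 ± 0.10, adjusted p = 0.00722) and Lamtor4 (a Ragulator subunit, 0.30 ± 0.07) passed toward cKO. Rptor (the mTORC1 scaffold raptor, -0.35 ± 0.08) passed toward Ctrl. These were 11.1% and 5.56% of the list, beside 12.6% and 11.8% of all genes. Rragd measured 207, 195 and 241 CPM in Ctrl and 323, 360 and 329 CPM in cKO, and the groups did not overlap.

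Summed over the 44 members, the direction depended on the scale. With TMM factors the members summed to 5093 to 5107 CPM in the Ctrl libraries and 5369 to 5462 CPM in the cKO libraries. As a share of all counts, they took 0.5515% to 0.5678% in the Ctrl libraries and 0.4724% to 0.5275% in the cKO libraries. The order of single genes was largely shared: Psap, Sqstm1, Lamp1, Ctsd and Map1lc3a were the 5 most abundant per kilobase of exon in both groups, and Gusb moved from rank 26 in Ctrl to rank 39 in cKO.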

How the data were processed

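The data are RNA-Seq libraries of GP muscle, 3 in each labelled group. The authors deposited whole-number counts per gene without normalization, and the submitters' processing notes name FastQC 0.11.8, Trimmomatic 0.39 (read trimming), HISAT2 2.1.0 (alignment, build mm10) and featureCounts 1.6.2 (counting). The annotation and the strand setting are not given in the sources used here, so reads of genes that overlap on opposite strands may not be separable. Groups and replicates follow the sample titles, which name a separate mouse for each library. Library pairs within a group differed beyond sampling noise (chi-square divided by its degrees of freedom, 29.5 to 101).

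The test was edgeR 4.0.16 under R 4.3.3 (TMM factors, filterByExpr, quasi-likelihood F test, Benjamini-Hochberg adjustment over all 14180 genes tested). All adjusted p values are from this test unless DESeq2 1.42.0 is named. Standard errors were derived from the F statistic. For a single gene, an exact permutation test of 3 against 3 cannot go below p = 0.1 (two-sided), so separation of the groups is given instead. CPM per kilobase used the union of exons in GENCODE M21 (GRCm38, the assembly of mm10). Shared exon bases were counted on the same annotation, and promoters came from RefSeq on GRCm38.p6. The fitting script was tested on simulated data.

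The members and the gene lists were chosen with earlier results of these data known. Members that passed the test and 14 members set by role are named with the value in each library, the others by range, and from each further list the 3 genes with the smallest p in each direction among those that passed. Atg101, Rb1cc1, the library values of Gaa, Npc1, Pik3c3, Lgmn and Rragd, and the genes near Gusb, were picked after their values were seen. Alternatives were other size factors, total counts, other filters, a robust fit, a block for the mouse number, DESeq2's Wald test and leaving out each library.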

Additional observations from a re-analysis of the deposited data

How the results depend on the processing

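Over the 44 members and 13 alternatives, 487 of the single-gene results kept their direction and side of the threshold, 47 kept the direction and lost the call, 25 kept it and gained one, and 13 changed sign, of which Tpp1 with total counts also lost its call. Of the alternatives, total counts moved the members' median and the number of calls toward Ctrl most. Calls toward cKO fell to 1 (0 lysosomal, 0 autophagy) and calls toward Ctrl rose to 22 (15 lysosomal, 6 autophagy), beside 4.75% and 28.7% of all genes. The members' median moved to -0.304, beside a median of -0.269 for all genes tested. Calls toward Ctrl were gained by Ctsa, Ctsf, Ctsh, Ctsz, Glb1, Lipa, Npc2, Cd63, Tfe3, Atg7, Wipi1, Map1lc3a and Nbr1. Under total counts the log2 fold change turned to -0.15 for Ctsb, -0.015 for Tpp1, -0.036 for Naglu, -0.205 for Neu1, -0.115 for Lamp1, -0.216 for Mcoln1, -0.072 for Becn1, -0.189 for Atg5, -0.174 for Sqstm1 and -0.13 for Optn. Neu1 also turned without Ctrl 3 (-0.004) and without cKO 3 (-0.06), and Mcoln1 without cKO 3 (-0.007). With 1 library left out, Neu1 ranged from -0.06 to 0.086 and Mcoln1 from -0.007 to 0.067. The cause of these changes was not tested beyond the scaling itself.

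DESeq2's Wald test called 10 members toward cKO, 5 of them autophagy genes, and 10 toward Ctrl, compared with 14.1% and 12.3% of all genes it tested. With the mouse number as a replicate block, 2 members were called toward cKO (0 lysosomal, 1 autophagy) and 6 toward Ctrl (4 lysosomal, 2 autophagy). Over all genes this fit called 6.54% toward cKO and 6.85% toward Ctrl. Ctsd, Ctsl, Tpp1, Hexa, Psap, Lamp2 and Gabarapl2 lost their calls in it (adjusted p from 0.0521 to 0.105). Across all genes the block lowered the calls from 3454 to 1899. Whether the numbers pair the mice is not known. Deviations from the group means correlated at 0.0835, -0.215 and -0.002 for numbers 1, 2 and 3. Not every mouse correlated best with its own number, but 3 mice per group are too few to exclude a pairing. With 1 library left out, members called toward cKO numbered 1 to 9 and toward Ctrl 5 to 11. Lysosomal members numbered 0 to 4 toward cKO and 3 to 8 toward Ctrl, and autophagy members 0 to 4 and 2 to 3. With a fold change over 2 as well, the members numbered 0 to 1 toward cKO and 2 to 4 toward Ctrl, and the members' median ranged from -0.0672 to -0.0193. With 3 mice per group, small differences such as those of Tpp1, Hexa and Gabarapl2 lie at the edge of what the test calls.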

Other observations

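Gusb lies among genes that were also called. Within 2 megabases on each side of it, 26 other genes were tested, of which 7 passed toward cKO and 5 toward Ctrl, against 12.6% and 11.8% of all genes tested. Their median log2 fold change was 0.074. Those with the smallest p were Sbds (-0.70 ± 0.09), Vkorc1l1 (0.59 ± 0.08), Phkg1 (1.12 ± 0.17) and Rabgef1 (0.61 ± 0.11). This interval was chosen after the values were seen and was given no test.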
